A study of Mus musculus with 112 samples.

Results

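Long noncoding RNAs (lncRNAs) were measured in total RNA of whole SNRNP70-AID mouse embryonic stem cells, in 3 libraries of cells given 500 µM IAA for 4 h and 3 libraries of cells at 0 h, without IAA. These 6 libraries, of 112 samples in the series, were taken by their labels: the table of total RNA after SNRNP70-AID depletion, whole-cell columns, in FPKM (fragments scaled to transcript length and to the size of the library). The line was made from 46C mouse embryonic stem cells of strain 129/Ola and was grown with leukemia inhibitory factor. Both groups carry the AID tag on SNRNP70, and no IAA-treated library of cells without the tag was used here, so IAA itself and the loss of the protein cannot be told apart. The labels do not say whether the replicates were separate cultures, and p-values measure the spread between these libraries only. Beside them stand, for comparison, the chromatin, cytoplasmic and nucleoplasmic total RNA and the whole-cell polyA RNA of the same line at 4 h of 500 µM IAA and at 0 h, with 3 libraries a group. A further set came from whole cells given an antisense morpholino oligonucleotide (AMO) to U1 at 75 µM for 2 h (3 libraries) or a control AMO at the same dose and time (2 libraries used).

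SNRNP70, also called U1-70K, is a protein of the U1 small nuclear ribonucleoprotein, which pairs through U1 RNA with 5′ splice sites and so starts spliceosome assembly. U1 also restrains early cleavage and polyadenylation within introns and has been reported to hold many lncRNAs on chromatin. The auxin-inducible degron (AID) lets the auxin IAA send the tagged protein to the proteasome within hours. The table was deposited as one of lncRNAs, and neither Snrnp70 nor the coding markers of stem cells were analysed here. Among lncRNAs, the stem cell transcript Lncenc1 stood at 110.1 to 112 FPKM in 4 h cells and at 109.6 to 122 FPKM in 0 h cells. Of 6 measured lncRNAs of differentiated cells, Hotairm1 had the lowest mean. It stood at 0 to 0.18 FPKM in 4 h cells and at 0.12 to 0.30 FPKM in 0 h cells. Others of the 6 were well above it. Mir124a-1hg averaged 22.9 FPKM in 4 h cells and 11.3 FPKM in 0 h cells. Halr1 averaged 13.7 FPKM and 16 FPKM, and Bvht 4.98 FPKM and 5.51 FPKM, in the same order.

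Of 1279 lncRNAs, 1249 were tested (at least 3 of the 6 libraries at or above 0.14 FPKM). After 4 h of IAA, 70 rose, which is 5.6% of those tested, and 89 fell, which is 7.13% (limma on log2(FPKM + 0.14), Benjamini-Hochberg adjusted p under 0.05). The median log2 change over all tested was -0.06, with quartiles of -0.49 and 0.34. Whole-cell FPKM were not scaled to spike-in RNA, so a change in the amount of RNA per cell would not show in these values. None of the 70 and 89 had overlapping libraries. The test on these same libraries favours such separation, so it is no separate support for the calls. Over all tested lncRNAs the 4 h libraries were all higher in 14.4% and all lower in 19.5%. The risers changed by 0.33 to 2.32 on the log2 scale and the fallers by -2.35 to -0.34. Of 10 listed hosts of small nucleolar RNAs (snoRNAs) 7 rose. Among 23 listed stem cell lncRNAs 5 fell, 4 of them of the Platr family. All of the 23 but Lncenc1 and Panct2 belong to that family.

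The 3rd replicates of both groups stood apart from the rest along the 2nd principal component (21.5% of the variance), while the 1st (40.2%) parted 4 h from 0 h cells. They also listed the most lncRNAs at 0, with 67 at 4 h and 50 at 0 h, against 13 to 26 in the other libraries. The summed FPKM per library ran from 12134 to 13129 in 4 h cells and from 10603 to 11981 in 0 h cells. Without both 3rd replicates, 27 rose and 27 fell of 1209 tested, and of those 27 and 23 were among the 70 and 89. Read depth is unknown, since FPKM were deposited without counts.

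**Figure D1:**
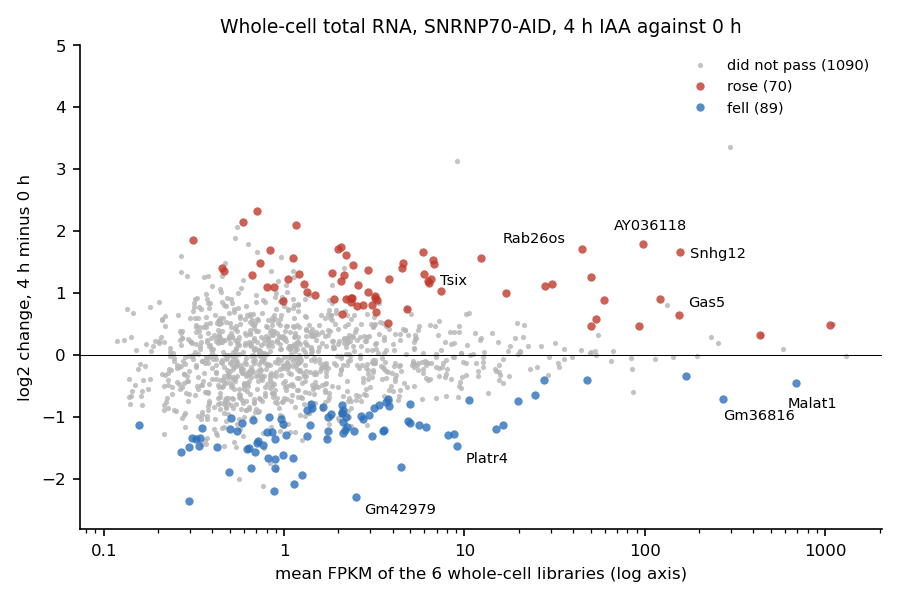
Each point is 1 of 1249 tested lncRNAs, with its mean FPKM over the 6 whole-cell libraries on a log axis and its log2 change, 4 h minus 0 h, on the vertical axis. The 70 that rose (red) include 39 of the 312 at 2.51 FPKM and more, where 30 fell (blue); grey points did not pass the test.

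As that plot shows, calls were spread unevenly over the levels. Of the 312 lncRNAs with a mean of 2.51 FPKM and more, 39 rose and 30 fell, and of the 313 with the lowest means, up to 0.52 FPKM, 3 rose and 13 fell. The median standard error of a log2 change was 0.17 in the high class and 0.37 in the low one, so low lncRNAs were measured less precisely.

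snoRNA host genes carry snoRNAs in their introns, which are released after splicing, and the spliced exons are left as a host RNA that is often short-lived. The RNAs of these genes often open with a run of pyrimidines. The windows around a RefSeq start of the 7 risen hosts, and of Rab26os, which rose about as much as Snhg12, are given here. Each window runs from 50 bases before the start through the first 50 bases from it, 5′ to 3′ on the strand of the gene (RefSeq, build GRCm38.p6). Capitals mark TATA in the 50 bases before the start, a run of at least 4 pyrimidines (C or T) that holds the start base, and GTAAG in the 50 bases from the start.
Snhg12, chr4:132308628-132308727, plus strand: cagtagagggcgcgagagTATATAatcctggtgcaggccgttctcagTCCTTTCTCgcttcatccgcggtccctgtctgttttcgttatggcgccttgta
Snhg3, chr4:132353637-132353736, minus strand: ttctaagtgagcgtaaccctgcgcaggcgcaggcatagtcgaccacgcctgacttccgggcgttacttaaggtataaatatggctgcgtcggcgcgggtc
Snhg20, chr11:117076733-117076832, plus strand: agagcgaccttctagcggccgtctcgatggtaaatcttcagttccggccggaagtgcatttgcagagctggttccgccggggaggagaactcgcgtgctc
Snhg5, chr9:88522848-88522947, minus strand: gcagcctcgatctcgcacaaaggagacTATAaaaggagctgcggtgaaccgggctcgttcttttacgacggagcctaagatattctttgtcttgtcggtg
Snhg1, chr19:8723437-8723536, plus strand: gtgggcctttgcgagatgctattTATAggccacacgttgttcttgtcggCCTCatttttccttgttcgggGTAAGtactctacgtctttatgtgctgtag
Gas5, chr1:161035116-161035215, plus strand, the downstream of 2 starts: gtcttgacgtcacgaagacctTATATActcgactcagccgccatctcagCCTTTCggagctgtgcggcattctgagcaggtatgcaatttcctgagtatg
Snhg8, chr3:123508287-123508386, minus strand: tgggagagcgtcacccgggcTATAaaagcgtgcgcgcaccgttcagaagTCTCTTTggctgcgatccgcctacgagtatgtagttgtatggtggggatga
Rab26os, chr17:24528201-24528300, plus strand: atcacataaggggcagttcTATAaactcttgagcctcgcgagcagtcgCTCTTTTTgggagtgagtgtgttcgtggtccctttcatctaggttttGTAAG

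In these windows, TATA, which reads the same on both strands, was found before 6 of 8 starts, against 9.08% of 32817 RefSeq start windows of the mouse. The start base lay inside a pyrimidine run of at least 4 at 5 of 8 starts (all starts: 14%), the longest being 9 bases at Snhg12. The upstream start of Gas5 held none of the 3 features and was left out of the 8. The shares over all starts count every listed start. Hosts that did not rise were not scanned, so the counts say nothing on risen against other hosts. GTAAG, letters found at many 5′ splice sites, stood within the first bases of Snhg1 and Rab26os on the strand of the gene (all starts: 3.6%, and 1.95% on the other strand). These are letters in fixed windows chosen after the rises were known, and no factor or start site was measured.

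The list of snoRNA hosts held Gas5 and genes named Snhg, so hosts under other names were not counted. Of its 10 members, 7 rose, 0 fell and 3 did not pass the test, where 5.6% of all tested lncRNAs rose and 7.13% fell. Their median log2 change was 0.77 beside -0.06 over all tested lncRNAs. Snhg12 had 248, 242 and 221 FPKM in 4 h cells, against 80.8, 63.4 and 79.6 FPKM in 0 h cells, a 3.19-fold rise (log2 change 1.67, SE 0.12, limma adjusted p = 0.000648). Its lowest 4 h library was far above its highest 0 h library. Snhg3 had 74.5, 72.9 and 64.7 FPKM in 4 h cells and 34.2, 22.7 and 32.1 FPKM in 0 h cells (log2 change 1.27, SE 0.16, limma adjusted p = 0.00427). Both genes lie on chromosome 4 and both rose in chromatin and cytoplasm too.

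Snhg20 had 36.6, 41.9 and 37.1 FPKM in 4 h cells against 17.5, 15.9 and 19.7 FPKM in 0 h cells (log2 change 1.12, SE 0.12). Snhg5 had 158, 172 and 146 FPKM in 4 h cells against 84.9, 84.1 and 83.1 FPKM in 0 h cells (log2 change 0.91, SE 0.09). The 0 h libraries of Snhg5 lay within 2 FPKM of each other, and all 4 h libraries lay well above them. Snhg1 had 82.2, 71.0 and 78.1 FPKM in 4 h cells against 42.2, 38.0 and 44.6 FPKM in 0 h cells (log2 change 0.89, SE 0.10). Gas5, named for its rise in growth-arrested cells, had 192, 183 and 195 FPKM in 4 h cells against 125, 110 and 128 FPKM in 0 h cells (log2 change 0.65, SE 0.09, limma adjusted p = 0.00616). Among the risen hosts the smallest change was that of Snhg8, with 67.1, 64.7 and 61.7 FPKM in 4 h cells against 47.3, 34.3 and 47.8 FPKM in 0 h cells (log2 change 0.59, SE 0.14, limma adjusted p = 0.0337). The call of Snhg8 was lost in 5 of the 6 fits that left out 1 library.

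Snhg17 narrowly missed the threshold, although its libraries did not overlap: 24.9, 23.7 and 26.5 FPKM in 4 h cells against 20.8, 17.7 and 15.3 FPKM in 0 h cells (log2 change 0.48, SE 0.13, limma adjusted p = 0.0552). Snhg15 had overlapping libraries, with 25.0 to 30.2 FPKM in 4 h cells and 22.1 to 30.4 FPKM in 0 h cells. Snhg6 was the one host in the list with a negative change. It had 14.3 to 17.1 FPKM in 4 h cells and 17.9 to 22.4 FPKM in 0 h cells (log2 change -0.33, SE 0.13, limma adjusted p = 0.14). With 1 library left out, 6 or 7 of the 10 hosts rose and none fell, and without both 3rd replicates 6 rose. Without a trend in the variance 5 rose, the calls of Gas5 (limma adjusted p = 0.0558) and Snhg8 being lost.

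**Figure D2:**
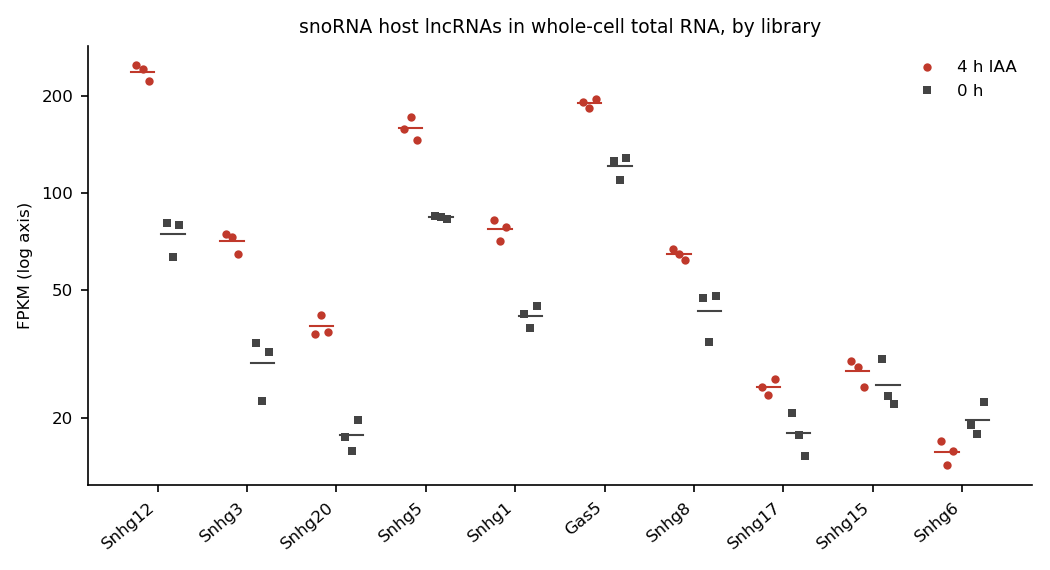
FPKM of the 10 snoRNA hosts on a log axis, 1 point a library, with the 3 libraries of 4 h cells (red circles) left of the 3 of 0 h cells (dark squares) and a bar at each mean. The groups do not overlap from Snhg12 (means 237 and 74.6 FPKM) through Snhg17 (25.0 and 18.0 FPKM), and Snhg6 is the only host with its 4 h libraries all below.

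In polyA RNA of whole cells, where 12.4% of 1172 lncRNAs rose and 6.83% fell, 9 of the 10 hosts rose and Snhg6 fell. Without a trend in the variance 6 rose and 0 fell there, the polyA calls of Snhg12, Snhg3 and Snhg6 being among those lost. The sizes differed between the RNA kinds: the log2 change of Snhg12 was 0.39 (SE 0.06) in polyA RNA beside 1.67 in total RNA, and that of Snhg5 was 1.21 (SE 0.06) beside 0.91. The difference between the RNA kinds was not tested. On chromatin 3 of the 10 hosts rose and 1 fell, where 3.2% and 47.3% of 1250 lncRNAs did. Those chromatin counts rest on the scaling: over all lncRNAs the median log2 change was -0.63 as deposited and 0.10 with libraries centred on their medians, and then 21.7% rose, 16.9% fell and 96 called changes had the other sign. With centring, 8 of the 10 hosts rose on chromatin and 0 fell. After U1 AMO, 4.7% of 1171 lncRNAs rose and 3.25% fell in whole cells, and Snhg12 was again higher (log2 change 1.5, limma adjusted p = 0.00938), whereas Snhg5 (-0.51, adjusted p = 0.434) and Gas5 (0.21, adjusted p = 0.503) did not pass that test. With only 2 control libraries these U1 AMO calls are fragile: without the 1st control replicate or with a replicate block 0 lncRNAs rose or fell, and without the 2nd control replicate 13 rose and 1 fell. The call of Snhg12 was lost in all 3 of these fits, at log2 changes of 1.48 to 1.52.

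Spliced lncRNAs known from the cytoplasm gave 2 rises (Gas5 and Epb41l4aos), 0 falls and 3 that did not pass, of 5 measured. Their median log2 change was 0.42, and Gas5 was already counted among the snoRNA hosts. Over all tested lncRNAs 5.6% rose and 7.13% fell. Epb41l4aos, annotated opposite to Epb41l4a, had 33.0, 38.0 and 56.9 FPKM in 4 h cells against 18.7, 19 and 17.8 FPKM in 0 h cells (log2 change 1.16, SE 0.19, limma adjusted p = 0.0103). The 3rd replicate at 4 h was the highest of them. Without both 3rd replicates the log2 change was 0.90 and the call held. 2900097C17Rik, the mouse Norad gene, whose RNA binds Pumilio proteins, had 57.0, 63.7 and 61.8 FPKM in 4 h cells against 46.4, 47.4 and 51.8 FPKM in 0 h cells (log2 change 0.33, SE 0.09, limma adjusted p = 0.0611). Dancr had 4.48 to 6.75 FPKM in 4 h cells and 3.42 to 4.20 FPKM in 0 h cells (log2 change 0.42, SE 0.19, adjusted p = 0.206 with limma). Tug1 had 44.4 to 46.8 FPKM in 4 h cells and 40.8 to 44.5 FPKM in 0 h cells (log2 change 0.09, SE 0.09).

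Among lncRNAs annotated as opposite strand to a neighbour, 2 rose, 3 fell and 33 did not pass, of 38, which is close to the 5.6% and 7.13% of all lncRNAs. Of the 2 that rose (the other being Epb41l4aos), Rab26os had the larger change, with 63.0, 79.3 and 63.5 FPKM in 4 h cells against 19.7, 20.0 and 22.7 FPKM in 0 h cells (log2 change 1.71, SE 0.12, limma adjusted p = 0.000648). Its groups were separated by more than 40 FPKM. In polyA RNA Rab26os averaged 158 FPKM at 4 h and 30.3 FPKM at 0 h, and on chromatin it averaged 23.9 FPKM and 20.2 FPKM, where the change did not pass as deposited (log2 change 0.24, limma adjusted p = 0.451) but did with centring (0.97). Of the 3 that fell, Frs3os had 1.12, 1.07 and 0.76 FPKM in 4 h cells against 3.19, 2.19 and 2.12 FPKM in 0 h cells (log2 change -1.23, SE 0.24), a call lost without the 2nd replicate at 4 h or the 1st at 0 h. H3f3aos averaged 0.160 ± 0.035 FPKM in 4 h cells and 0.693 ± 0.061 FPKM in 0 h cells (SD, n = 3 each), and its call was lost in 3 of the 6 fits that left out 1 library. Brip1os averaged 2.43 ± 0.383 FPKM in 4 h cells and 4.32 ± 0.673 FPKM in 0 h cells (SD, n = 3 each), and its call was lost in each of the 6 fits that left out 1 library. The kit keeps the strand, but whether the deposited FPKM counted 1 strand is not given in the sources used here, so reads of these RNAs and of the genes opposite them may not be separated.

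The 10 largest rises were taken among lncRNAs that passed the test, with a mean of at least the median of all tested (0.99 FPKM) and libraries that did not overlap. Besides Rab26os and Snhg12 they were Gm45205, AY036118, Gm37115, Gm38336, Gm28373, Gm5914, 6330403K07Rik and ENSMUSG00000053656.6, which has no symbol in the tables used. Gm45205 changed most, with 2.02, 1.82 and 2.09 FPKM in 4 h cells against 0.33, 0.40 and 0.32 FPKM in 0 h cells (log2 change 2.11, SE 0.22, limma adjusted p = 0.00198). Gm37115 had 3.20, 3.37 and 3.19 FPKM in 4 h cells against 1.07, 0.81 and 0.76 FPKM in 0 h cells (log2 change 1.75, SE 0.19). Gm38336 had 3.09, 3.38 and 2.87 FPKM in 4 h cells against 0.90, 1.02 and 0.66 FPKM in 0 h cells (log2 change 1.72, SE 0.21). In these 3 the replicates lay close together within each group.

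Gm28373 had 8.29, 8.75 and 10.1 FPKM in 4 h cells against 2.75, 2.93 and 2.56 FPKM in 0 h cells (log2 change 1.66, SE 0.14, limma adjusted p = 0.00122). ENSMUSG00000053656.6 had 20.1, 18.6 and 16.9 FPKM in 4 h cells against 6.95, 4.13 and 7.84 FPKM in 0 h cells (log2 change 1.58, SE 0.23). Both were separated without overlap, as the rule that named them asked. Gm5914 had 3.52, 3.85 and 2.53 FPKM in 4 h cells against 1.91, 0.49 and 0.89 FPKM in 0 h cells (log2 change 1.62, SE 0.42, limma adjusted p = 0.0444), and its call did not hold in 5 of the 6 fits that left out 1 library. 6330403K07Rik had 1.38, 1.66 and 2.20 FPKM in 4 h cells against 0.34, 0.76 and 0.42 FPKM in 0 h cells (log2 change 1.58, SE 0.31, limma adjusted p = 0.0195), and its call was lost in 4 of the 6.

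AY036118 and Gm42418 are entries that overlap ribosomal RNA repeats, and ribosomal RNA was removed from these libraries by Ribo-Zero. AY036118 had 190.2, 124 and 138 FPKM in 4 h cells against 41.4, 30.8 and 60.9 FPKM in 0 h cells (log2 change 1.79, SE 0.26, limma adjusted p = 0.00678). Gm42418 had 1125, 1394 and 1218 FPKM in 4 h cells against 880, 943 and 823 FPKM in 0 h cells (log2 change 0.49, SE 0.10, limma adjusted p = 0.022). Both rose in whole cells, while in the cytoplasm AY036118 averaged 3757 FPKM at 4 h and 3343 FPKM at 0 h without passing the test. In 1 fit over all 24 libraries of the table neither call held (limma adjusted p = 0.582 for AY036118), and that of Gm42418 was also lost in 4 of the 6 fits that left out 1 library. Ribosomal RNA levels were not analysed here, and the part of rRNA removal in these values was not tested.

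The 10 largest falls by the same rule were those of Gm42979, Gm37303, Gm37893, Gm38372, Gm44033, Platr4, Sox2ot, Gm37144, Gm38248 and Gm37899. Gm42979 had 0.77, 0.74 and 0.75 FPKM in 4 h cells against 4.50, 4.30 and 3.88 FPKM in 0 h cells, and fell by 2.29 on the log2 scale (SE 0.17, limma adjusted p = 0.000648). Gm37303 had 0.26, 0.31 and 0.49 FPKM in 4 h cells against 1.63, 1.84 and 2.27 FPKM in 0 h cells (log2 change -2.07, SE 0.27). Gm37893 had 0.56, 0.38 and 0.38 FPKM in 4 h cells against 2.49, 1.81 and 1.89 FPKM in 0 h cells (log2 change -1.93, SE 0.25). These were separated by at least 1 FPKM in every case.

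Gm38372 had 1.96, 1.77 and 1.96 FPKM in 4 h cells against 6.88, 6.12 and 7.89 FPKM in 0 h cells (log2 change -1.80, SE 0.16, limma adjusted p = 0.00122). Gm44033 averaged 0.467 ± 0.106 FPKM in 4 h cells and 1.77 ± 0.396 FPKM in 0 h cells (SD, n = 3 each). Gm37144 averaged 1.69 ± 0.160 FPKM in 4 h cells and 4.45 ± 0.987 FPKM in 0 h cells (SD, n = 3 each). Gm38248 and Gm37899 fell by 1.30 and 1.28 on the log2 scale. All 8 of the Gm entries among these falls also fell on chromatin, where 47.3% of all lncRNAs fell, with log2 changes of -1.48 (Gm37899) to -2.85 (Gm44033). With centring, where 16.9% fell, all 8 fell too, at a median log2 change of -1.28.

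**Figure D3:**
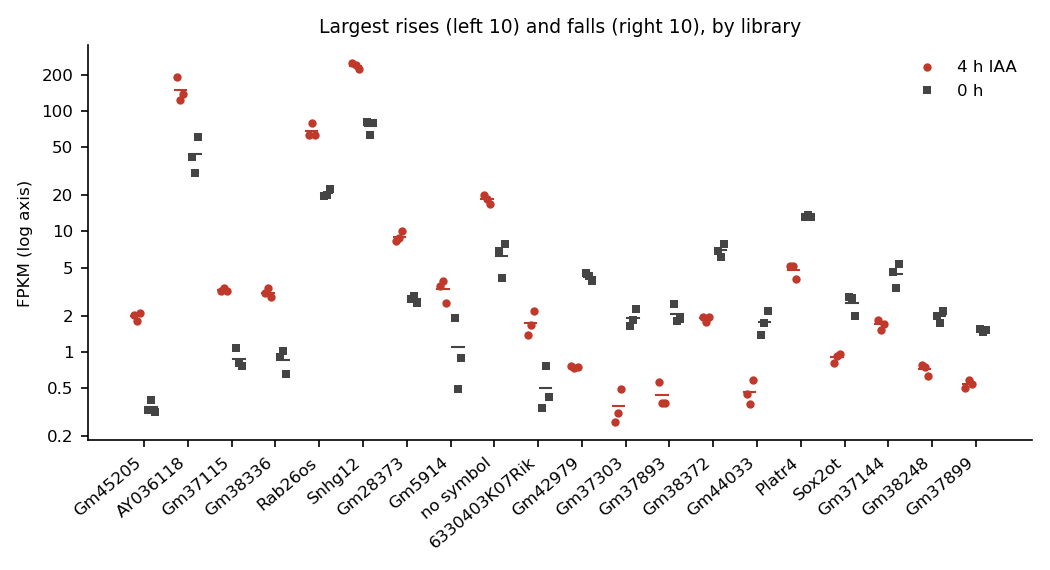
FPKM on a log axis of the 10 largest rises (left) and the 10 largest falls (right), 1 point a library, with 4 h cells (red circles) left of 0 h cells (dark squares) and a bar at each mean. No pair of groups overlaps, because the rule asked for that; the rises include Rab26os (means 68.6 and 20.8 FPKM) and Snhg12 (237 and 74.6 FPKM), and among the falls Platr4 (4.80 and 13.4 FPKM) is the highest at 0 h.

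Name classes were counted beside the background of 5.6% rises and 7.13% falls over all tested lncRNAs. Of 804 Gm-numbered entries tested, 45 rose and 54 fell, close to that background (median log2 change -0.02). Of 274 Rik clones, 10 rose, a smaller share than the background, and 18 fell (median -0.11). Over 15 alternative settings, 15 to 55 Gm entries rose and 13 to 83 fell, and 0 to 21 Rik clones rose and 4 to 30 fell.

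Stem cell lncRNAs include the Platr family (pluripotency-associated transcripts), found by their high level in pluripotent cells, Panct2 and Lncenc1, which is active in naive stem cells. Of 23 measured, 0 rose, 5 fell and 18 did not pass, where 5.6% of all tested lncRNAs rose and 7.13% fell. Their median log2 change was -0.60, beside -0.06 over all tested. Platr4 had 5.2, 5.17 and 4.04 FPKM in 4 h cells against 13.2, 13.8 and 13.2 FPKM in 0 h cells (log2 change -1.46, SE 0.14, limma adjusted p = 0.00166). Platr15 had 14.6, 16.3 and 13.6 FPKM in 4 h cells against 23.8, 26.6 and 24.1 FPKM in 0 h cells (log2 change -0.74, SE 0.11, limma adjusted p = 0.00869). Platr21 had 1.64, 2.25 and 1.98 FPKM in 4 h cells against 3.84, 4.05 and 3.87 FPKM in 0 h cells (log2 change -0.96, SE 0.17). Their libraries did not overlap.

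Platr22 had 1.48, 1.28 and 1.41 FPKM in 4 h cells against 2.85, 2.46 and 3.05 FPKM in 0 h cells (log2 change -0.93, SE 0.18, limma adjusted p = 0.0176), a call lost in 3 of the 6 fits that left out 1 library. Panct2 had 1.5, 1.40 and 1.28 FPKM in 4 h cells against 3.39, 2.83 and 2.22 FPKM in 0 h cells (log2 change -0.93, SE 0.21, limma adjusted p = 0.0274), a call lost in 5 of those 6 fits. Lncenc1, the most abundant member, did not pass, and neither did Platr14: Lncenc1 averaged 111 ± 1.03 FPKM in 4 h cells and 116 ± 6.09 FPKM in 0 h cells (SD, n = 3 each), and Platr14 averaged 31.8 ± 2.20 FPKM and 34.4 ± 0.729 FPKM. On chromatin 22 of the 23 fell, where 47.3% of all tested lncRNAs fell, and with centring 13 of the 23 fell, where 16.9% did. In polyA RNA, where 12.4% of all tested lncRNAs rose and 6.83% fell, 0 rose and 5 fell of 20 tested. With 1 library left out, 3 to 5 of the 23 fell in whole cells, and without both 3rd replicates 1 did, at a median log2 change of -0.70.

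Of lncRNAs known for work on chromatin or in nuclear bodies, 11 were measured and 10 tested: 1 rose (Tsix), 3 fell (Malat1, Nespas and Rian) and 6 did not pass, with a median log2 change of -0.32. The shares over all tested lncRNAs were 5.6% rises and 7.13% falls. Tsix, the antisense repressor of Xist, was the riser, with 9.33, 8.82 and 8.15 FPKM in 4 h cells against 3.79, 3.77 and 3.63 FPKM in 0 h cells (log2 change 1.20, SE 0.13, limma adjusted p = 0.00198). The 4 h values were more than 2-fold the 0 h values in every library, at 2.30-fold by the fit. Tsix also rose in polyA RNA (log2 change 1.82, limma adjusted p = 3.41e-06), in the cytoplasm (2.03, adjusted p = 0.014 with limma) and in the nucleoplasm (1.54, adjusted p = 0.00198 with limma), but did not pass on chromatin as deposited (-0.28, adjusted p = 0.247); with centring it rose there (0.45). Its cytoplasmic call was lost without the 1st or without the 2nd replicate at 4 h. Xist itself stood at 0.04 to 0.22 FPKM in 4 h cells and 0.01 to 0.03 FPKM in 0 h cells and was not tested.

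Malat1, an abundant RNA of nuclear speckles, had 613, 592 and 536 FPKM in 4 h cells against 806, 782 and 786 FPKM in 0 h cells (log2 change -0.45, SE 0.08, limma adjusted p = 0.0137). All 4 h libraries were below all 0 h libraries. In polyA RNA the direction was opposite: Malat1 averaged 118 FPKM at 4 h and 75.8 FPKM at 0 h (log2 change 0.63, limma adjusted p = 0.00202), a call lost without a trend in the variance (adjusted p = 0.0521, limma). The total RNA call did not hold without a trend in the variance, without both 3rd replicates, or without the 1st or the 3rd replicate at 0 h. Neat1, the scaffold of paraspeckles, had 26.8, 25.5 and 25.5 FPKM in 4 h cells against 31.6, 33.5 and 31.7 FPKM in 0 h cells (log2 change -0.31, SE 0.09, limma adjusted p = 0.0614). Firre, which binds hnRNPU, averaged 10.5 ± 1.05 FPKM in 4 h cells and 13.2 ± 0.570 FPKM in 0 h cells (SD, n = 3 each; log2 change -0.32, limma adjusted p = 0.126).

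Imprinted lncRNAs are made from 1 parental allele, and of 5 measured 0 rose, 2 fell and 3 did not pass (median log2 change -0.40). Among all tested lncRNAs 5.6% rose and 7.13% fell. Nespas, antisense at the Gnas cluster, had 3.90, 4.08 and 3.18 FPKM in 4 h cells against 8.71, 10.3 and 6.68 FPKM in 0 h cells (log2 change -1.16, SE 0.19, limma adjusted p = 0.0103). Like Malat1, Nespas rose in polyA RNA, with means of 2.88 FPKM at 4 h and 1.03 FPKM at 0 h (log2 change 1.44, limma adjusted p = 0.00283). Rian, from the Dlk1-Dio3 cluster, had 41.5, 42.9 and 38.7 FPKM in 4 h cells against 55.3, 54.0 and 52.8 FPKM in 0 h cells (log2 change -0.40, SE 0.09, limma adjusted p = 0.0274), and its call was lost in each of the 6 fits that left out 1 library and when libraries were centred on their medians. Meg3 of the same cluster averaged 23.8 ± 3.47 FPKM in 4 h cells and 21.3 ± 2.65 FPKM in 0 h cells, and Mirg averaged 7.17 ± 1.75 FPKM and 11.3 ± 1.15 FPKM (SD, n = 3 each). Kcnq1ot1, the antisense RNA that silences its imprinted domain, averaged 1.5 ± 0.104 FPKM in 4 h cells and 1.91 ± 0.066 FPKM in 0 h cells (SD, n = 3 each) and did not pass (limma adjusted p = 0.278).

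Of 7 microRNA hosts, 1 rose, 0 fell and 6 did not pass (median log2 change 0.04), where 5.6% of all tested lncRNAs rose and 7.13% fell. Mir124a-1hg, the host of the neuronal microRNA miR-124, had 23.9, 22.3 and 22.4 FPKM in 4 h cells against 12.5, 10.5 and 11 FPKM in 0 h cells (log2 change 1.01, SE 0.11, limma adjusted p = 0.0024). Its libraries lay 9 FPKM or more apart. In polyA RNA it averaged 11.1 FPKM at 4 h and 7.36 FPKM at 0 h (log2 change 0.59, limma adjusted p = 0.00851), a polyA call lost without a trend in the variance (adjusted p = 0.0557, limma). Ftx, near the X-inactivation centre, had 1.35, 0.98 and 1.33 FPKM in 4 h cells against 2.11, 1.96 and 2.37 FPKM in 0 h cells, narrowly missing the threshold (log2 change -0.76, SE 0.20, limma adjusted p = 0.0506). Dleu2, which hosts miR-15a and miR-16, averaged 3.71 ± 0.252 FPKM in 4 h cells and 4.65 ± 0.620 FPKM in 0 h cells (SD, n = 3 each). Among the 3 X-inactivation lncRNAs tested (Tsix, Ftx and Firre) only Tsix passed, with a median log2 change of -0.32.

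Of 6 lncRNAs of differentiated cells, Mir124a-1hg rose, Sox2ot fell and 4 did not pass (median log2 change -0.18), beside 5.6% rises and 7.13% falls over all. Sox2ot, which spans Sox2, had 0.81, 0.93 and 0.97 FPKM in 4 h cells against 2.87, 2.78 and 2.00 FPKM in 0 h cells (log2 change -1.35, SE 0.21, limma adjusted p = 0.00898). It also fell on chromatin (log2 change -1.81). Halr1 averaged 13.7 ± 1.48 FPKM in 4 h cells and 16 ± 0.897 FPKM in 0 h cells, and Miat averaged 0.953 ± 0.223 FPKM and 0.653 ± 0.167 FPKM (SD, n = 3 each).

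**Figure D4:**
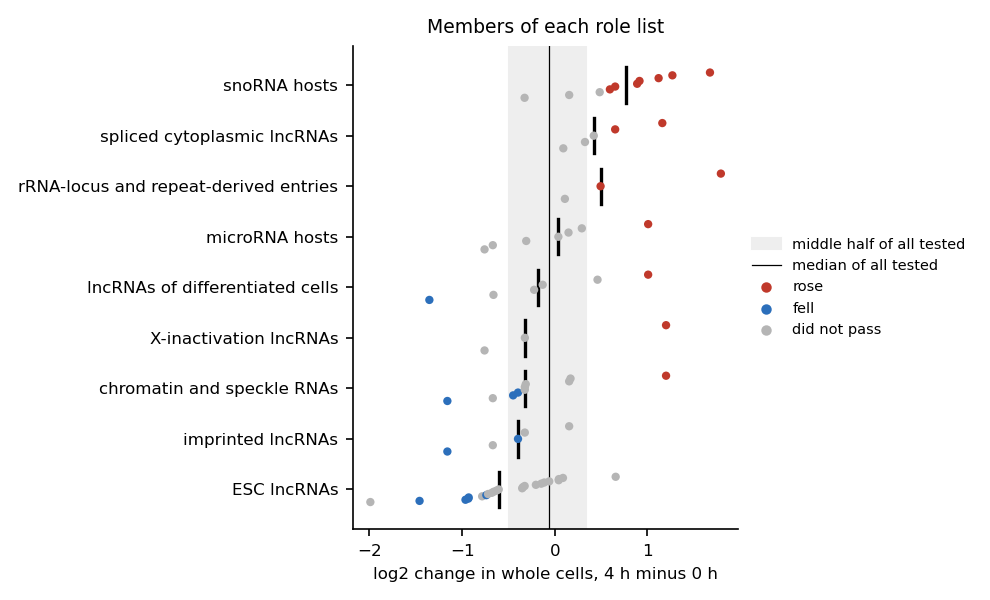
Each point is 1 member of a role list at its log2 change in whole cells, 4 h minus 0 h, red where it rose, blue where it fell and grey where it did not pass; thick bars mark list medians, the thin line the median of all tested (-0.06) and the band the quartiles (-0.49 to 0.34). The snoRNA hosts (median 0.77) lie highest and the stem cell lncRNAs (median -0.60) lowest; Mir124a-1hg, Mirg, Gas5, Tsix and others stand in more than 1 list.

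The 10 entries with the highest mean level were Hist2h2bb, Gm43078, Gm42418, Malat1, Gm43238, Gm43558, Gm43041, Gm23925 (ENSMUSG00000100992.1), Gm36816 and Gm44206. Hist2h2bb bears the name of a histone gene, though it is listed among lncRNAs. Gm36816 had 199, 218 and 202 FPKM in 4 h cells against 324, 338 and 347 FPKM in 0 h cells, and fell by 0.70 on the log2 scale (SE 0.08, limma adjusted p = 0.00251). Gm43041 had 487, 492 and 475 FPKM in 4 h cells against 407, 365 and 383 FPKM in 0 h cells (log2 change 0.33, SE 0.08, limma adjusted p = 0.0314), but its call was lost in each of the 6 fits that left out 1 library. Gm43078 averaged 1306 ± 234 FPKM in 4 h cells and 915 ± 71.9 FPKM in 0 h cells (SD, n = 3 each; log2 change 0.50, limma adjusted p = 0.0517). Hist2h2bb averaged 1296 ± 150.2 FPKM in 4 h cells and 1296 ± 42.8 FPKM in 0 h cells (SD, n = 3 each; log2 change -0.01). Gm23925 (ENSMUSG00000100992.1) had 223, 247 and 453 FPKM in 4 h cells and 566, 0 and 289 FPKM in 0 h cells, so 1 library is listed at 0. Gm43238, Gm43558 and Gm44206 had overlapping groups and did not pass.

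PolyA RNA comes from separate libraries, and 12.4% of all lncRNAs rose there. Of the 70 whole-cell risers, 58 were tested in polyA RNA, and 45 rose and 0 fell, with a median log2 change of 1.14 beside 0.10 over all lncRNAs tested in polyA RNA. These 45 were 64.3% of the whole-cell risers and 32.8% of the 137 lncRNAs that rose in polyA RNA and were tested in both. In the nucleoplasm, where 5.49% of 1148 lncRNAs rose and 11.2% fell, 36 of the 70 rose and 0 fell. With libraries centred the nucleoplasmic split over all lncRNAs turned to 12.8% rises and 8.28% falls, and 54 of the 70 rose; without the 2nd replicate at 0 h, where 31 rose and 28 fell in all, 25 of the 70 rose. In the cytoplasm, where 3.25% of 1014 lncRNAs rose and 1.28% fell, 18 of the 63 tested rose and 0 fell, but without the 1st replicate at 4 h only 10 lncRNAs rose and 0 fell in all, 8 of them among the 62 risers then tested. On chromatin, where 3.2% rose and 47.3% fell, 22 of the 70 rose and 4 fell, at a median of 0.32 beside -0.63 over all. With centring, where 21.7% rose and 16.9% fell, 54 of the 70 rose and 0 fell. After U1 AMO 17 of the 68 tested rose and 0 fell, but without the 1st control replicate or with a replicate block 0 did, and without the 2nd 6 did.

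The 4 risers that fell on chromatin were Gm43566, 4930405N21Rik, 1110038B12Rik and Gm45691, named here after their values were seen. Gm43566 rose by 1.41 on the log2 scale in whole cells and fell by 1.43 on chromatin (limma adjusted p = 0.00762 there). The chromatin values were scaled to spike-in RNA by the authors and the whole-cell values were not, so their changes are not on 1 scale. With centring none of the 4 fell on chromatin, and 3 had positive changes there (Gm43566 had -0.70). The whole-cell call of Gm45691 was lost in each of the 6 fits that left out 1 library, that of 4930405N21Rik in 4 and that of 1110038B12Rik in 3.

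Of the 89 whole-cell fallers, 88 were tested on chromatin, and 85 fell and 0 rose, with a median log2 change of -1.68. As deposited, 46.7% of the lncRNAs that did not pass in whole cells fell there too. The 85 were 95.5% of the whole-cell fallers and 14.4% of the lncRNAs that fell on chromatin and were tested in both. With centring, where 16.9% of all lncRNAs fell, 61 of the 88 fell and 0 rose. In the nucleoplasm, where 11.2% of all fell, 49 of 85 fell, and without the 2nd replicate at 0 h 16 of 82 did. In the cytoplasm, where 1.28% of all fell, 6 of 78 fell and 0 rose, and without the 1st or the 2nd replicate at 4 h, or the 2nd at 0 h, 0 fell. In polyA RNA, where 6.83% of all fell, 31 of 70 fell, while Malat1, Nespas and Gm38374 rose. The whole-cell call of Gm38374 was lost in each of the 6 fits that left out 1 library, and it was low in polyA RNA, at a mean of 0.203 FPKM at 4 h and 0.053 FPKM at 0 h. Its polyA call was lost without the 1st or without the 2nd replicate at 0 h. After U1 AMO 7 of 84 fell, but 0 did without either control replicate or with a replicate block.

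At 0 h, the log2 ratio of chromatin to cytoplasm had a median of 2.51 in the 70 risers, 2.47 in the 89 fallers and 2.06 in the 1090 that did not pass, and 84.3%, 78.7% and 74.0% of them stood in the polyA table. The median level at 0 h was 1.91 FPKM in risers, 2.35 FPKM in fallers and 0.918 FPKM in the rest. Chromatin enrichment before IAA overlapped between risers and fallers, with quartiles of 0.32 and 3.72 in risers and of 1.09 and 3.4 in fallers.

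**Figure D5:**
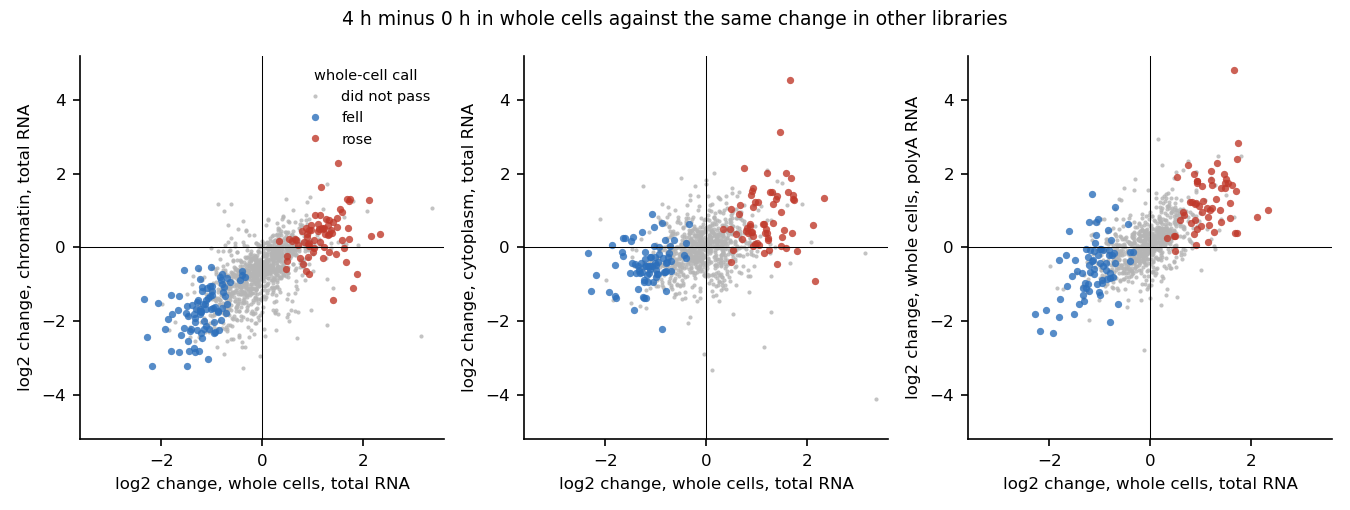
Log2 change in whole-cell total RNA, 4 h minus 0 h, against the same change on chromatin, in the cytoplasm and in whole-cell polyA RNA, 1 point a lncRNA tested in both, coloured by the whole-cell call (red rose, blue fell, grey did not pass). Of the 88 whole-cell fallers tested on chromatin 85 fell there, where 47.3% of all lncRNAs fell on the deposited scale, and of the 58 risers tested in polyA RNA 45 rose there.

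The difference between compartments was tested as an interaction, with every library centred on its median. Against chromatin, the whole-cell change was more positive for 2 lncRNAs (0.157% of 1276) and more negative for 0 (164 had an unadjusted p under 0.05, limma). 2400006E01Rik had 2.81, 3.41 and 4.39 FPKM in 4 h whole cells against 5.33, 4.85 and 3.92 FPKM in 0 h whole cells. On chromatin it averaged 1.97 ± 0.429 FPKM at 4 h and 13.7 ± 2.13 FPKM at 0 h (SD, n = 3 each), and the log2 changes differed by 1.62 (SE 0.25, limma adjusted p = 0.0199). For Gm28373 the whole-cell change exceeded that on chromatin by 1.39 (SE 0.18, limma adjusted p = 0.0103), with chromatin means of 7.64 FPKM at 4 h and 10.2 FPKM at 0 h. Without the 1st chromatin replicate at 0 h neither call held (limma adjusted p = 0.0532 for both), and that of 2400006E01Rik was also lost without either other chromatin replicate at 0 h, the 2nd chromatin replicate at 4 h, or the 2nd whole-cell replicate at 4 h or at 0 h, and with a replicate block (adjusted p = 0.144, limma).

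Against the cytoplasm, the whole-cell change was more positive for 1 lncRNA (0.0791% of 1264) and more negative for 10 (0.791%). Gm28373 was among the 10: its cytoplasmic mean was 17.7 ± 2.14 FPKM at 4 h and 0.650 ± 0.231 FPKM at 0 h (SD, n = 3 each), and the whole-cell change lay below the cytoplasmic one (difference -2.83, SE 0.33, limma adjusted p = 0.00161). Platr4 fell in whole cells but had cytoplasmic means of 8.56 FPKM at 4 h and 7.11 FPKM at 0 h, a difference of -1.69 (SE 0.21, limma adjusted p = 0.00208). Gm37404 had 197, 168 and 218 FPKM in 4 h whole cells against 186, 181 and 219 FPKM in 0 h whole cells, while its cytoplasmic mean was 24.2 FPKM at 4 h and 7.28 FPKM at 0 h (difference -1.69, SE 0.20, limma adjusted p = 0.00161). Gm27167 was the one with the more positive whole-cell change (difference 3.07, SE 0.61, limma adjusted p = 0.0373), at 0.41, 0.39 and 0.92 FPKM in 4 h whole cells and 0.40, 0.14 and 0 FPKM in 0 h whole cells. These values lie near the pseudocount, and the call was lost in most fits that left out 1 library.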

How the data were processed

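Total RNA was depleted of ribosomal RNA (Ribo-Zero) and sequenced from a directional library kit, per the labels' protocols. CASAVA, TopHat, Cufflinks and the mm10 build are named in the submitters' processing notes, without versions. The deposited FPKM are the authors' values; per the file headers, fractions were scaled to spike-in RNA and whole cells were not. The 3 of 1282 entries that share an identifier were dropped. Symbols matched 1172 of 1279 identifiers exactly, 89 without their version and 18 not at all. Changes were fitted with limma 3.58.1 in R 4.3.3 on log2(FPKM + pseudocount), with a trend in the prior variance and Benjamini-Hochberg adjustment over all lncRNAs tested. The pseudocount was the 10th percentile of values above 0 (0.14 for this table, 0.08 for polyA and 0.19 for AMO whole cells), and 3 libraries had to reach it, so fold changes of low lncRNAs are understated. The fit was tested on simulated data. Of the other tables, 43 AMO columns and 6 polyA columns were not used, among them 1 control AMO column that names no fraction. Members, role lists and tests were chosen with earlier results of these data known. Named were the 10 largest rises and falls (adjusted p under 0.05, no overlap, mean at least the median of those tested), the 10 highest means, members of role lists, and up to 3 per direction of each compartment difference. Alternatives were the pseudocount, the filter, the trend, centring, a replicate block, 1 fit over 24 libraries and leaving out each library. The SLAM-seq table and the ChIP peak lists were not used here.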

Additional observations from a re-analysis of the deposited data

Results flagged for a closer look

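Changes that differed between whole cells and a fraction were taken for a closer look. The log2 change in whole cells lay above that on chromatin for 2400006E01Rik (difference 1.62) and Gm28373 (1.39). The chromatin difference of Gm28373 was not called without the 1st chromatin replicate at 0 h (limma adjusted p = 0.0532). The change lay below that in the cytoplasm for Gm28373 (-2.83), Platr4 (-1.69) and Gm37404 (-1.69), and above it for Gm27167 (3.07). All these differences were tested as interactions in limma, with adjusted p between 0.00161 and 0.0373. The call of 2400006E01Rik against chromatin did not hold with a replicate block (adjusted p = 0.144) or in 6 of 12 fits with 1 library left out. That of Gm27167 did not hold with a replicate block (adjusted p = 0.139) or in 10 of 12 such fits.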

How the results depend on the processing

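In whole cells, 70 rose and 89 fell as reported. Deviations of same-numbered libraries correlated weakly (0.015, 0.0228 and 0.123), and those of differently numbered ones at -0.107 to 0.0987. The highest value was that of the 3rd replicates, which also stood together on the 2nd principal component. With a replicate block 43 rose and 41 fell. In 1 fit over 24 libraries 134 fell, and without replicate 3 of both groups, an alternative chosen after seeing the data, 27 rose and 27 fell. Leaving out 1 library gave 31 (without the 2nd replicate at 4 h) to 53 rises and 29 (without the same library) to 60 falls (without the 3rd at 4 h). The other settings stayed within 1.5 times, at 58 to 77 rises and 66 to 100 falls.

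For the difference from chromatin (2 above, 0 below), 1 was below with the lower pseudocount and with no trend, 10 were above and 11 below with 1 FPKM, 13 above with a mean of at least 1 FPKM and 130 above with no centring. Leaving out 1 library gave 0 to 3 above and 0 to 1 below. For the difference from the cytoplasm (1 above, 10 below), 0 were above with the lower pseudocount and with no centring, 10 above and 16 below with 1 FPKM, 3 below with no trend and 5 below with a replicate block. Leaving out 1 library gave 0 to 4 above and 4 to 15 below. The causes were not tested.

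Signs turned for 3 lncRNAs that did not pass: Hist2h2bb, at 0.046 with centring, 0.012 without replicate 3 of both groups and -0.093 to 0.073 with 1 library left out; Gm37404, at 0.039 with centring and -0.0996 to 0.0897 with 1 library left out; and Gm23925 (ENSMUSG00000100992.1), whose fitted values rest on the 0 h library listed at 0 and are no fold: -0.47 without that library and up to 5.52 with it. Counts in the fractions, polyA RNA and after U1 AMO, with their changes under centring and left-out libraries, stand beside their results. With FPKM only, read depth and counting error are unknown.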
